A study of Homo sapiens with 4 samples.

Results

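The genes described here are those of the ETS gene fusions of prostate cancer: ERG, ETS2 and TMPRSS2 on chromosome 21, ETV1 on chromosome 7 and MIPOL1 on chromosome 14. Each was taken as an interval of hg19: ERG from 39750000 to 40035000 and ETS2 from 40177000 to 40197000 on chromosome 21, TMPRSS2 from 42836000 to 42881000 on the same chromosome, ETV1 from 13930000 to 14032000 on chromosome 7, and MIPOL1 from 37666000 to 38021000 on chromosome 14. Every 40 kb bin that overlapped an interval was used, which gave 8 bins for ERG, 1 for ETS2, 3 for TMPRSS2, 3 for ETV1 and 10 for MIPOL1, 25 of the 71569 bins with a value in both cell lines. The stretch between ERG and TMPRSS2 (71 bins, which include ETS2 and 1 bin at the edge of each neighbour) and 1 Mb on each side of every gene were read for comparison. The intervals are defined by position and not by a measured value.

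The assay was ChIP-seq, in which DNA bound to a protein is recovered with an antibody and sequenced, here for lamin B1 in LNCaP, an established line of prostate adenocarcinoma, and in VCaP, an established line of a bone metastasis of prostate cancer. Both were grown in serum-containing medium with no drug, hormone or genetic change named in the labels, and both were fixed with formaldehyde. The 4 libraries are lamin B1 and antibody-free input of each line, 1 of each, so no difference below could be tested against replicates. Values are log2 enrichment of lamin B1 over the input of the same line. How ChIP and input were scaled is unknown, so 0 need not mean equal recovery. The number of reads per library is unknown. A hidden Markov model state was deposited for each bin with 1 of 2 labels, and the one with the higher mean in both lines is called associated here.

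ETS proteins are transcription factors that share a DNA-binding domain, the ETS domain, and bind sites around a GGAA core. ERG, ETS2 and ETV1 belong to this family. TMPRSS2 encodes a serine protease of the prostate epithelium whose transcription is driven by the androgen receptor. In many prostate cancers a rearrangement joins the start of TMPRSS2 to ERG, which lies on the same arm of chromosome 21, and so places an ETS factor under androgen control. VCaP carries this fusion. LNCaP carries a different rearrangement, in which ETV1 has been moved into the MIPOL1 region of chromosome 14. MIPOL1 encodes a coiled-coil protein. The nuclear lamina, of which lamin B1 is a component, lies under the inner nuclear membrane, and chromatin in contact with it is on average poor in genes and low in transcription. Reads are placed on the reference genome, so rearranged and unrearranged copies of a gene contribute to the same bin.

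The base composition around the gene starts is one feature the choice of genes did not use. The 250 bases before the outermost annotated start are shown for the 4 genes present in the RefSeq promoter table of GRCh38.p14, with every CG dinucleotide, the pair that marks CpG-rich promoters, in capitals. GRCh38.p14 is not the build of the bins, so these positions were not placed on them. TMPRSS2 was not in that table.
ERG: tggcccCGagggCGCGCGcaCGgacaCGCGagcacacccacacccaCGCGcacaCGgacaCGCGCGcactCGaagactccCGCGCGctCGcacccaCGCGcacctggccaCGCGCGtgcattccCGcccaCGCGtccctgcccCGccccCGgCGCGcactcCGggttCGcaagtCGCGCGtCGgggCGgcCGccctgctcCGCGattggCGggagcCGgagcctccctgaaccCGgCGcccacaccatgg
ETS2: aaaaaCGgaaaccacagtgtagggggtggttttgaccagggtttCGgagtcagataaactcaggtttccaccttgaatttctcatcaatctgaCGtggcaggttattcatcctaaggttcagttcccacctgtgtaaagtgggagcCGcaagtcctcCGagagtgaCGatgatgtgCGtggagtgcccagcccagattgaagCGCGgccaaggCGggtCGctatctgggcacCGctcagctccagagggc
ETV1: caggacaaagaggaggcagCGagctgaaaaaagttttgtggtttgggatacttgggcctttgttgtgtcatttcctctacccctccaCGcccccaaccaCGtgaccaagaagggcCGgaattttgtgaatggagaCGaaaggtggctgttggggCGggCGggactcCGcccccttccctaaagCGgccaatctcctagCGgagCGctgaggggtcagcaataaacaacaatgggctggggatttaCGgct
MIPOL1: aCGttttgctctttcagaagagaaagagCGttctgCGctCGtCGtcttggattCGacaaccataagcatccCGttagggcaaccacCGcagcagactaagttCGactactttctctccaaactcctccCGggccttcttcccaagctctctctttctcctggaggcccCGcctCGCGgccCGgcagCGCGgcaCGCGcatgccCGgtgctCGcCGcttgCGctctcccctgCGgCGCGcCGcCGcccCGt
These run 5′ to 3′ and lie at chr21:38660668-38660917 on the minus strand (ERG), chr21:38804933-38805182 on the plus strand (ETS2), chr7:13991426-13991675 on the minus strand (ETV1) and chr14:37197687-37197936 on the plus strand (MIPOL1). The ERG window held 44 CG pairs with 77.2% G or C, and 99.2% of the 35116 windows in the table held fewer. The MIPOL1 window held 28 (84.1% of windows held fewer). The ETS2 and ETV1 windows held 12 each, against a median of 11, and 93.9% of all windows held at least 1. The other 3 annotated starts of ERG had only 2 or 3 CG pairs each, so the CG-rich start is 1 of 4. These counts are a description of the reference sequence and were not set against the enrichment values, which are 40 kb means.

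Against all bins of the genome, lamin B1 enrichment was low in most of the 25 gene bins, of which ERG and MIPOL1 gave 8 and 10. In LNCaP, 24 of the 25 gene bins were below 0, where 43.2% of all LNCaP bins were, and their values ran from -0.86 to 0.10 with a median of -0.39 (median of all bins 0.06). In VCaP, 19 of the 25 were below 0, where 33.1% of all VCaP bins were, and values ran from -1.40 to 0.72 with a median of -0.27 (median of all bins 0.19). The associated state was assigned to 0 of the 25 bins in LNCaP, where 37.8% of all bins carried it, and to 2 of the 25 in VCaP, where 44.4% did. Both of these lay at TMPRSS2. Chromosome 21, which holds ERG, ETS2 and TMPRSS2, was itself low in LNCaP, with a median of -0.40 and 4.84% of bins associated. The LNCaP means of ERG, ETS2 and TMPRSS2 lay above 54.6%, 70.5% and 27.6% of its bins. In VCaP, the means of ETS2 and TMPRSS2 lay above 51.5% and 60.3% of all bins, so neither was low there. Neighbouring bins of a gene share averaged signal, so the 25 bins are far fewer than 25 separate measurements.

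**Figure D1:**
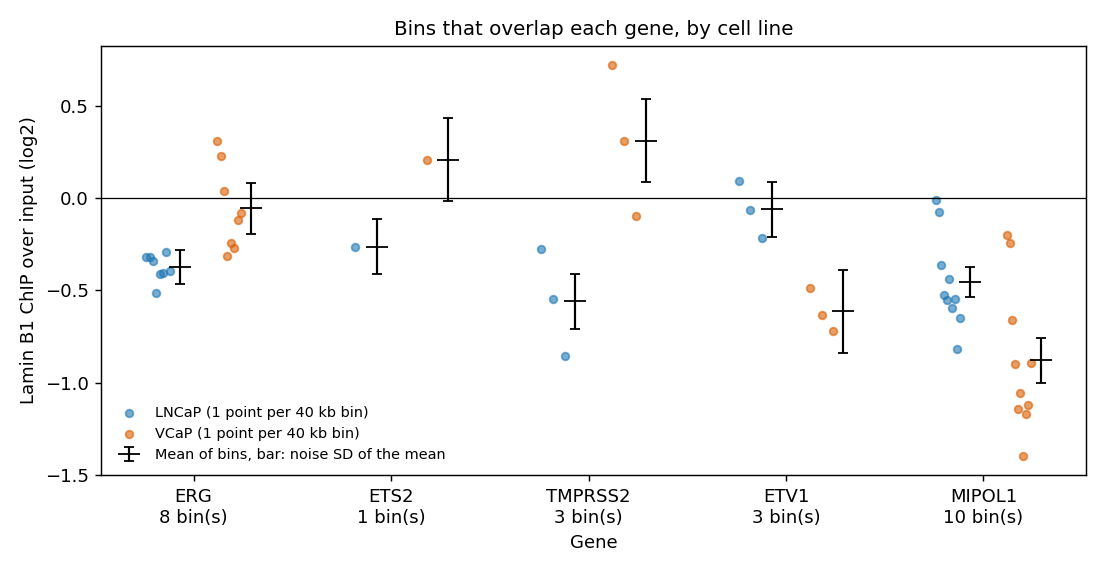
Log2 lamin B1 enrichment over input (vertical axis) for each 40 kb bin that overlaps a gene (horizontal axis), in LNCaP and VCaP, with bins in genomic order from left to right. Black marks are the mean of the bins and the noise SD of that mean. MIPOL1 in VCaP holds the lowest bin (-1.40) and TMPRSS2 in VCaP the highest (0.72).

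The error beside each gene is a noise estimate from within each library. It was estimated from bins 3 apart, since each deposited value averages 3 entries, and it came to an SD of 0.15 log2 units for 1 bin in LNCaP, 0.22 in VCaP and 0.27 for their difference. For a gene of n bins it was divided by the square root of n/3, or left as it was for up to 3 bins. A difference of over 2 noise SDs is called beyond the noise. For means and their differences, this bound from the deposited values was also used with the 3-entry averaging undone. No separate bound was computed for means of undone bins. This measures bins within a library and leaves out any difference between cultures.

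ERG, the ETS factor that the fusion activates, was low and even in LNCaP and more varied in VCaP. From its lower-coordinate end, which is the 3′ end because ERG is read from the minus strand, the 8 LNCaP values were -0.32, -0.32, -0.34, -0.51, -0.41, -0.40, -0.29 and -0.39. The 8 VCaP values were 0.31, 0.23, 0.04, -0.31, -0.24, -0.27, -0.12 and -0.08. The 3 bins at the 3′ end were thus above 0 in VCaP and the 5 toward the 5′ end below it, whereas no LNCaP bin reached 0. The first and highest VCaP bin holds only 10 kb of the interval. The split of the VCaP bins rests on the averaging: with the 3-entry mean undone the VCaP values were 0.41, -0.19, -0.11, -0.64, 0.03, -0.20, -0.18 and 0.14.

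The ERG mean was -0.37 in LNCaP (noise SD 0.09) and -0.05 in VCaP (0.14). VCaP was higher in all 8 bins, as it was in 58.1% of all bins, and the difference of 0.32 had a noise SD of 0.17, so it did not exceed 2 noise SDs. Of its 8 bins, 2 differed singly by more than the noise, each higher in VCaP, where 19.1% of all bins did so in that direction. The LNCaP mean lay above 9.46% of all LNCaP bins but above 54.6% of the bins of chromosome 21, since the whole chromosome was low in that line (median -0.40). In VCaP it lay above 28.7% of all bins and 30.7% of those of chromosome 21 (median 0.18). With each chromosome centred on its median, ERG was 0.26 lower in VCaP than in LNCaP (-0.26), the opposite direction.

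ERG lay in a gap between associated runs of VCaP. The run on its lower-coordinate side, from 38960001 to 39480000, ended 270 kb from the gene and had a mean of 0.49 over 13 bins, where LNCaP had -0.32. The run on the other side began 165 kb from the gene, at 40200001, and reached 40560000 with a mean of 0.54 over 9 bins, where LNCaP had -0.33. The 720 kb between them, which hold ERG and ETS2, had a VCaP mean of 0.05. Against its own 1 Mb flanks, ERG was lower by 0.27 in VCaP (-0.27, noise SD 0.15) and differed by 0.04 in LNCaP (noise SD 0.10), neither beyond 2 noise SDs. In VCaP it did pass that bound with flanks of 500 kb (-0.39), with medians (-0.35) and with the 3-entry mean undone (-0.31).

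ETS2, a widely expressed member of the same family that sits between ERG and TMPRSS2, was covered by a single bin. Its value was -0.26 in LNCaP and 0.21 in VCaP. The difference of 0.47 had a noise SD of 0.27 and stayed under 2 noise SDs. With the 3-entry mean undone, the bin read -0.43 in LNCaP and 0.38 in VCaP, and the gap of 0.81 passed that bound. An associated run of VCaP began at the next bin, whose edge lies 3 kb beyond the gene, so ETS2 was the last bin outside it. Here and at the other genes, run edges are known only to a 40 kb bin of averaged values. ETS2 differed from its flanks by 0.11 in LNCaP (noise SD 0.15) and by 0.01 in VCaP (noise SD 0.23).

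Between ERG and TMPRSS2 the lines differed in level by about as much as over chromosome 21 as a whole. In LNCaP all 71 bins were below 0, where 43.2% of all LNCaP bins were. They ran from -0.73 to -0.03, and none was associated. In VCaP 57 of the 71 lay above 0, where 33.1% of all VCaP bins were below it. The VCaP values ran from -0.52 to 0.77, and 32 were associated. On chromosome 21, 43.2% of VCaP bins and 4.84% of LNCaP bins were associated. VCaP was the higher line in 70 of the 71 bins, as it was in 58.1% of all bins. The means were -0.30 in LNCaP (noise SD 0.03) and 0.24 in VCaP (0.05), which differed by 0.54 (noise SD 0.06). The medians of the whole chromosome differed by 0.58, and with each chromosome centred on its median it was -0.04.

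RefSeq lists 16 protein-coding genes in this stretch. In order from ERG they are ETS2, PSMG1, BRWD1, HMGN1, GET1, the readthrough GET1-SH3BGR, LCA5L, SH3BGR, B3GALT5, IGSF5, PCP4, DSCAM, BACE2, FAM3B, MX2 and MX1. DSCAM encodes a neuronal adhesion molecule, and MX1 and MX2 are interferon-induced antiviral genes. Only their order is used here, because the gene table is of GRCh38. In VCaP the stretch held the run from 40200001, a run of 560 kb from 41160001 to 41720000 with a mean of 0.48 (LNCaP -0.16), and a run of 400 kb from 42480001 to 42880000 with a mean of 0.42 (LNCaP -0.35). VCaP minus LNCaP was 0.87, 0.64 and 0.77 over these runs, which is a description only, since they were taken where VCaP is associated and the chromosome medians differ by 0.58. LNCaP had its highest value of the whole window, -0.03, inside the middle run, at 41520001 to 41560000.

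**Figure D2:**
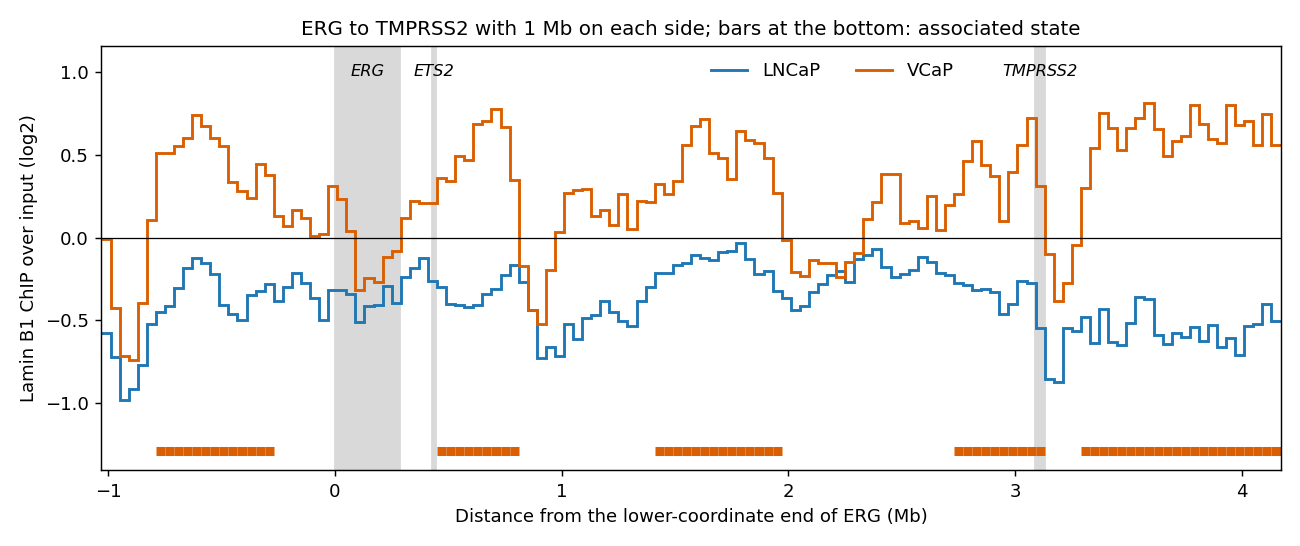
Log2 lamin B1 enrichment per 40 kb bin (vertical axis) against distance from the lower-coordinate end of ERG in Mb (horizontal axis), over ERG to TMPRSS2 and 1 Mb on each side. Grey bands are the genes and bars at the bottom are bins in the associated state. All 130 LNCaP bins lie below 0 and none is associated, whereas 68 VCaP bins are associated. Over chromosome 21, 4.84% of LNCaP bins and 43.2% of VCaP bins were associated. ERG lies in a gap between 2 of the VCaP runs.

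TMPRSS2, the androgen-driven partner that gives the fusion its promoter, lay at the edge of an associated run in VCaP. Its 3 values, in order of coordinate, were -0.28, -0.55 and -0.86 in LNCaP. In VCaP they were 0.72, 0.31 and -0.10, and the first 2 were associated. Both lines therefore declined across these bins, and each VCaP bin was above every LNCaP bin.

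The TMPRSS2 mean was -0.56 in LNCaP and 0.31 in VCaP, and the difference of 0.87 (noise SD 0.27) was beyond the noise. All 3 bins, which share averaged entries, passed that bound singly, where 19.1% of all bins did in that direction. The difference was higher than that of 93.4% of all bins, and than that of 73.6% of the bins of chromosome 21. With chromosomes centred on their median it was 0.29 and no longer beyond the noise. Against its 1 Mb flanks TMPRSS2 differed by -0.15 in LNCaP (noise SD 0.15) and by -0.03 in VCaP (0.23), both within the noise, and with the 3-entry mean undone by -0.46 and -0.48, both beyond it.

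The level at TMPRSS2 rested on the averaging of the deposited values. Each value averages 3 entries, the last of which is its own, so signal from the neighbouring run is carried into the gene. With that mean undone, the 3 bins read -0.63, -0.98 and -0.95 in LNCaP and 0.51, -0.33 and -0.47 in VCaP. The mean was then -0.86 in LNCaP and -0.10 in VCaP, below 0 in both, and the difference remained 0.76. The first bin only touches the gene, as 4 kb of it lie within the interval. The third bin starts at 42880001 and the interval ends at 42881000, so only the middle bin lies wholly within the gene. On the lower-coordinate side the next bins outward read 0.76 and 0.89 in VCaP. The bins beyond them, still in the associated run, read 0.02, 0.28 and -0.003. The noise SD was 0.27 per undone bin in VCaP, and whether the drop falls at the gene was not tested.

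In the deposited values, both lines passed through a trough beyond TMPRSS2 before VCaP turned high again. VCaP had 4 bins outside the associated state from 42880001 to 43040000, with a mean of -0.20 and its lowest value, -0.38, at 42920001 to 42960000. LNCaP had -0.87 in the same bin. From 43040001 to the end of the chromosome, 48129895, every VCaP bin was associated, with a mean of 0.74, where LNCaP had -0.45. The 1 Mb flank on this side held 22 associated bins of 25 in VCaP and 0 of 25 in LNCaP. Over chromosome 21 the shares were 43.2% and 4.84%. RIPK4, a kinase gene of epithelial differentiation, is the next protein-coding gene on this side in the RefSeq order. In LNCaP, ERG, ETS2 and TMPRSS2 all lay in 1 stretch of 21209 kb without an associated bin, from 26920001 to the end of the chromosome.

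ETV1, the ETS factor rearranged in LNCaP, showed the opposite order of the lines. Its 3 values were 0.10, -0.06 and -0.21 in LNCaP and -0.49, -0.63 and -0.72 in VCaP. Each LNCaP bin was above every VCaP bin. The means were -0.06 in LNCaP and -0.61 in VCaP, and the difference of -0.55 (noise SD 0.27) just exceeded 2 noise SDs. Against the same bound it did not with the mean undone (-0.50), with bins shifted by 1 (-0.48) or with the gene widened by 2 bins on each side (-0.50). It was lower than that of all but 7.41% of the bins of the genome. In 2 of the 3 bins LNCaP was higher by more than the noise, where 7.87% of all bins were.

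In LNCaP the gene was a notch between associated runs. The run on the lower-coordinate side, 680 kb from 13240001 to 13920000 with a mean of 0.33, ended 10 kb from the interval. The run on the other side, 1720 kb from 14120001 to 15840000 with a mean of 0.41, began 88 kb beyond it. Between them 5 bins were outside the associated state, with a mean of -0.07. ETV1 was lower than its 1 Mb flanks by 0.31 in LNCaP (-0.31, noise SD 0.15), just beyond the noise, and only 3 of the 50 flank bins were below its mean.

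With the mean undone the notch was narrower and deeper. The 3 ETV1 bins then read -0.07, -0.17 and -0.40 in LNCaP, the bin before them 0.05 and the bins after them 0.17 and 0.12, with a noise SD of 0.18 per undone bin. The difference from the flanks became -0.48. All bins just outside the gene were thus above 0 and all bins inside it below 0, although most lay within 2 noise SDs of 0.

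VCaP had 0 associated bins among the 53 of ETV1 and its flanks, where LNCaP had 40, and over chromosome 7 the shares were 44.0% and 29.9%. The gene lay in a stretch of 7080 kb outside the associated state, from 10960001 to 18040000, with a mean of -0.32. Of the same 53 bins, 51 were below 0 in VCaP and 10 in LNCaP, against 33.1% and 43.2% of all bins. Within these flanks the lowest VCaP value was -1.03, at 13440001 to 13480000, inside the LNCaP run. ETV1 was lower than its flanks by 0.21 in VCaP (-0.21, noise SD 0.23), within the noise. DGKB, a diacylglycerol kinase gene, follows it in the RefSeq order.

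**Figure D3:**
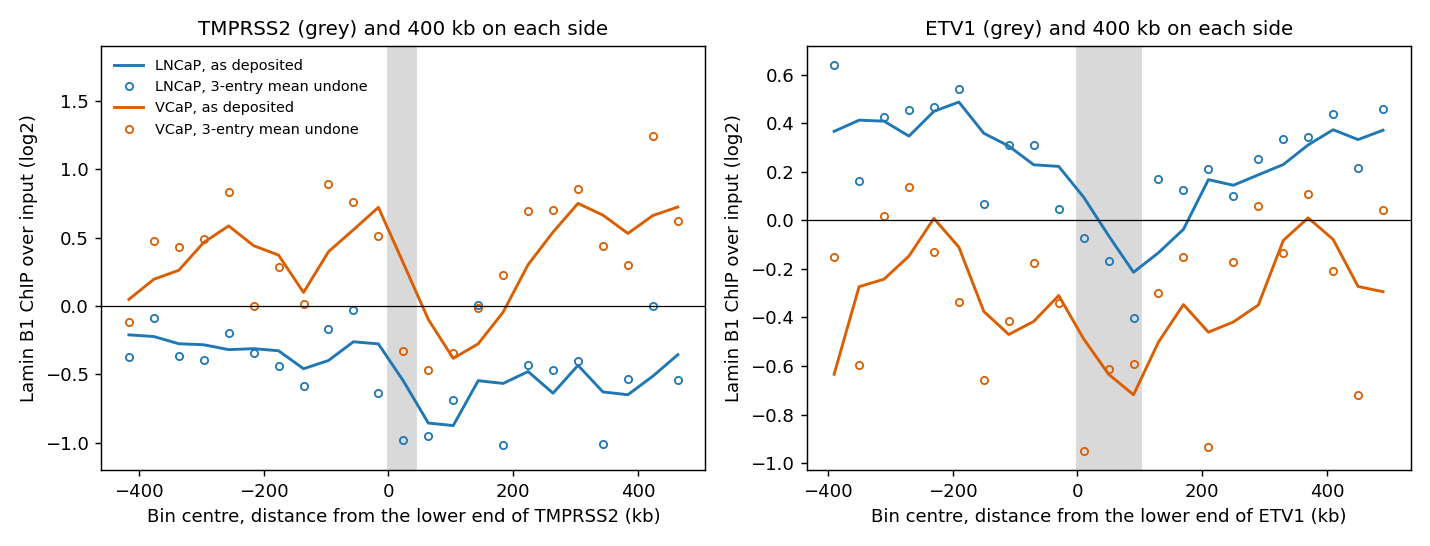
Log2 lamin B1 enrichment (vertical axis) by bin centre in kb from the lower-coordinate end of TMPRSS2 (left) and ETV1 (right), as deposited (lines) and with the 3-entry mean undone (circles). Grey bands are the genes. In VCaP the circles are below 0 in the TMPRSS2 bins from 42840001 on (-0.33 and -0.47), and in LNCaP they are below 0 in all 3 ETV1 bins.

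MIPOL1, the gene whose region receives ETV1 in LNCaP, held the lowest values of the 5 genes in VCaP. From its 5′ end the 10 LNCaP values were -0.01, -0.08, -0.36, -0.52, -0.55, -0.44, -0.59, -0.54, -0.82 and -0.65. The 10 VCaP values were -0.20, -0.24, -0.66, -0.90, -1.15, -1.05, -1.40, -1.17, -1.12 and -0.89. Both lines were lower in the other 8 bins than in the first 2, and VCaP was the lower line in every bin. The first bin holds only 14 kb of the interval.

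The MIPOL1 mean was -0.46 in LNCaP (noise SD 0.08) and -0.88 in VCaP (0.12). Only 0.667% of all VCaP bins, and 6.15% of all LNCaP bins, were below these means. On chromosome 14 itself the shares were 0.814% and 1.09%, and the chromosome medians were 0.15 in VCaP and 0.12 in LNCaP. The difference of -0.42 had a noise SD of 0.15 and was beyond the noise. In 4 of the 10 bins LNCaP was higher by more than the noise of a single bin, and in 0 of 10 was VCaP, where over all bins the shares were 7.87% and 19.1%.

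In the deposited values, the largest change between neighbouring bins of the MIPOL1 window stood at the same place in both lines, inside the gene between 37680001 and 37760000. It was -0.28 in LNCaP and -0.42 in VCaP. With the mean undone the values on either side were -0.27 and -0.73 in LNCaP and -0.31 and -1.39 in VCaP, but larger changes then stood elsewhere in the gene. LNCaP went from -0.21 to -1.21 between 37920001 and 38000000, and VCaP from -2.03 to -0.37 between 37880001 and 37960000, so the shared place holds for the deposited values only. Past the gene, the first bin at 38040001 was still at -0.71 in LNCaP and -1.07 in VCaP. FOXA1, which encodes a pioneer factor of the androgen receptor, is the next gene after MIPOL1 in the RefSeq order, and the low stretch continued on that side. Both lines were first back above 0 at 38480001, with 0.03 in LNCaP and 0.02 in VCaP.

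MIPOL1 was lower than its 1 Mb flanks in both lines, by 0.43 in LNCaP (-0.43, noise SD 0.09) and by 0.62 in VCaP (-0.62, noise SD 0.13). Both exceeded the noise, and in each line only 2 of the 50 flank bins lay below the mean of the gene. Of the 60 bins of the window 14 were associated in LNCaP and 0 in VCaP, against 39.2% and 40.2% over chromosome 14. The nearest associated bins of LNCaP ended 466 kb before the gene, in a run from 36520001 to 37200000 with a mean of 0.19, and began again 1939 kb after it. In VCaP the distances were 1706 and 1979 kb.

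**Figure D4:**
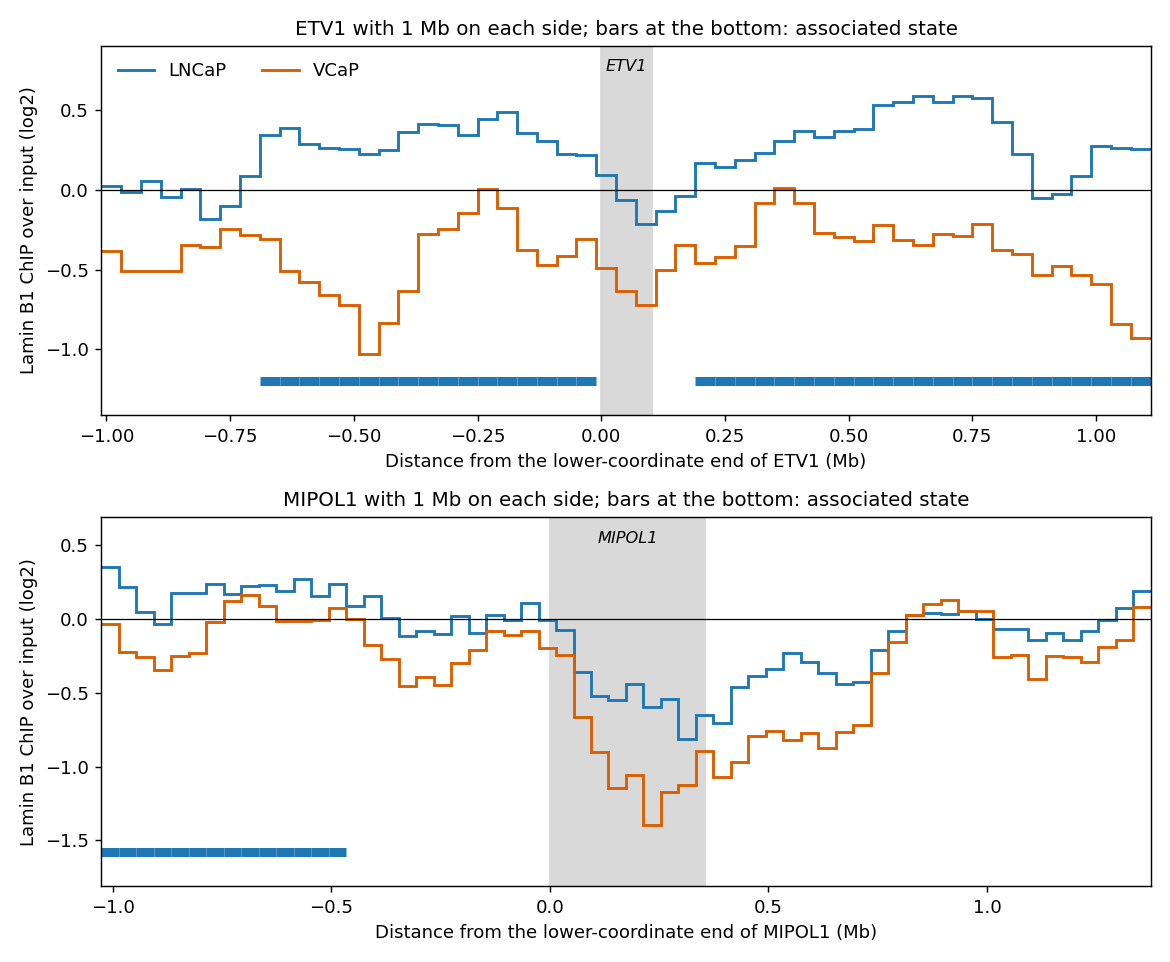
Log2 lamin B1 enrichment per 40 kb bin (vertical axis) against distance in Mb from the lower-coordinate end of ETV1 (top) and MIPOL1 (bottom), with 1 Mb on each side, in both lines. Grey bands are the genes and bars at the bottom are associated bins. ETV1 is a gap between LNCaP runs. At MIPOL1 the profiles have a like shape (Pearson r 0.92), with VCaP lower in every bin of the gene as deposited.

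How far the shapes of the profiles were shared differed between the 3 windows. Across the 60 bins of MIPOL1 and its flanks, LNCaP and VCaP values correlated with a Pearson r of 0.92 and a Spearman rho of 0.88. Across the 53 bins of the ETV1 window r was 0.33 and rho 0.46. Across the 130 bins from the ERG flank to the TMPRSS2 flank r was 0.28 and rho 0.12. These describe bins of the same pair of libraries, which share averaged signal, and carry no test.

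Set side by side, the line that carries a rearrangement had the higher mean at the ETS gene concerned. This was VCaP at ERG (-0.05 against -0.37) and LNCaP at ETV1 (-0.06 against -0.61). It is not particular to these genes, as VCaP minus LNCaP was further from 0 in their flanks: 0.62 beside ERG, against 0.32 at the gene, and -0.66 beside ETV1, against -0.55. At ERG the difference was within 2 noise SDs and had the other sign with chromosomes centred, and at ETV1 it became -0.72 with chromosomes centred. At TMPRSS2, the VCaP fusion partner, VCaP was higher by 0.87, or by 0.29 and within the noise with chromosomes centred. In the TMPRSS2 flanks VCaP was higher by 0.75, with 0.40 on the lower-coordinate side and 1.10 on the other. At MIPOL1, the LNCaP recipient region, LNCaP was higher by 0.42 (VCaP minus LNCaP -0.42, and -0.23 in its flanks). With 1 library per line, a difference at a gene and a difference between these libraries cannot be told apart. Counted over single bins of the 5 genes, VCaP was higher beyond the noise in 5 of 25, against 19.1% of all bins, and LNCaP in 6 of 25, against 7.87%.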

How the data were processed

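The authors deposited, for each line, log2 enrichment of lamin B1 over input in 40 kb bins and a table of state labels, which is from a hidden Markov model, per the file names. The submitters' processing notes name hg19 and STAR without their roles. How ChIP and input were scaled, and all filters, are not given in the sources used here. No value is given for the first 2 entries of a chromosome. Undoing a trailing mean of 3 entries brought the median absolute value of the entries over 40 kb wide from 0.21 to 0.01 in LNCaP (194 entries) and from 0.33 to 0.01 in VCaP (212), so each deposited value was read as such a mean. The undoing and the noise estimate were tested on simulated data.

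The members and lists were chosen with earlier results of these data known. All 5 genes are named, with the lowest and highest bins and the largest steps of each window where they bear on a gene. Positions are in hg19, counted from 1, except those of promoters. Noise is the scaled median absolute difference between bins 3 apart. It was computed per line and combined as the root of summed squares. The alternatives were the undone mean, bins shifted by 1, medians, wider loci, other flanks (500 kb and 2 Mb), centring, quantile normalization, other noise and other state thresholds. A planned list of other ETS genes was not analysed, as no hg19 gene positions were at hand. The tools were Python 3.11.15, pandas 2.3.3, numpy 2.4.6 and scipy 1.17.1. Depth is unknown, so no counting error is given.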

Additional observations from a re-analysis of the deposited data

Results flagged for a closer look

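The mean was below 0 in the LNCaP library and above 0 in the VCaP library at ETS2 (difference 0.47), at TMPRSS2 (0.87) and over the interval from ERG to TMPRSS2 (0.54). This was not tested, as each line has 1 library pair. The signs rest on the zero point and on the averaging of the deposited values: with the 3-entry mean undone, TMPRSS2 was below 0 in both lines (-0.86 and -0.10), while ETS2 (-0.43 and 0.38) and the interval (-0.30 and 0.25) still had opposite signs.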

How the results depend on the processing

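For 33 results, 176 alternative values were computed. The difference between the lines kept its sign under all 7 alternatives that change the value at TMPRSS2 (0.29 to 0.87), ETV1 (-0.72 to -0.48) and MIPOL1 (-0.67 to -0.39). Centring each chromosome on its median turned the sign over the ERG to TMPRSS2 interval (-0.042), at ERG (-0.26) and at ETS2 (-0.11), and left 0.29 at TMPRSS2; by construction it removes what a whole chromosome shares. Centring on the genome median gave 0.41 over the interval, and quantile normalization gave 0.47 there and -0.67 at MIPOL1. Undoing the 3-entry mean gave 0.81 at ETS2. Against flanks it gave -0.054 for ETS2 in LNCaP, -0.46 and -0.48 for TMPRSS2 in LNCaP and VCaP, -0.48 for ETV1 in LNCaP and -0.52 for MIPOL1 in LNCaP. Bins shifted 1 downstream gave -0.36 and -0.43 for TMPRSS2 against flanks in LNCaP and VCaP. For MIPOL1 against flanks, medians gave -0.54 in LNCaP and -0.75 in VCaP, and flanks of 500 kb gave -0.31 and -0.46. Noise from neighbouring bins put the differences at ERG and ETS2 beyond 2 noise SDs. Neighbouring values share averaged entries, so that noise is too small (0.13 for the difference of 1 bin, against 0.27). Noise from the locus and its flanks (0.17 at ERG, 0.26 at ETS2) left both within 2 noise SDs. Counting bins over 0 as associated gave 1 of 25 gene bins in LNCaP and 6 in VCaP, and over 0.5 gave 1 in VCaP; the cause was not tested. Of values that only describe a level, 10 moved by at least their noise SD, a smaller bound than the 2 noise SDs used above. No paired analysis was possible because there is 1 library per group. With depth unknown, only the noise between bins limits single genes.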
